A study of Mus musculus with 8 samples.

Results

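The genes described here are 10 mouse genes that the transcription factor p53 is known to switch on and whose products favour cell death or the signals that lead to it. They were taken as a list of symbols, Bax, Bbc3, Pmaip1, Fas, Tnfrsf10b, Perp, Aen, Eda2r, Phlda3 and Ei24. All 10 were present among the 55416 gene IDs of the deposited tables, and all 10 passed the filter on low counts, which left 14063 genes. The question was how much of each gene's rise in irradiated organoids of day 4 was still present at day 7.

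Poly-A RNA was sequenced from small intestinal organoids, cultures grown in IntestiCult medium from intestinal epithelial cells of mice aged 4 to 8 weeks. The 4 groups were organoids of day 4 that had received an X-ray dose of 6 Gy, untreated control organoids of day 4, irradiated organoids of day 7 and untreated control organoids of day 7, with 2 libraries each. All groups were C57BL/6 cells homozygous for Rosa26-rtTA and for Col1A1-TetO-OSKM, a transgene for the reprogramming factors that needs an inducer, and the labels of these samples name no inducer. The start of the day count is not in the labels, nor is it said whether replicates came from separate mice or cultures, so p-values measure the spread between these libraries, which may be technical.

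When DNA is broken, kinases stabilise p53, and p53 then raises genes for cell cycle arrest and genes for cell death. The death genes act by 2 main routes. At the mitochondrion, BH3-only proteins release Bax, whose pores in the outer membrane let cytochrome c out, and at the cell surface death receptors recruit adaptors that start the caspases. In the small intestine, p53-dependent apoptosis of crypt cells after radiation is a classic observation in mice.

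The p53 protein binds a sequence built from pairs of a 10-base half-site. Start-site windows of 300 bases were available for 7 of the 10 genes in RefSeq (GRCm38.p6), and a p53 half-site was found in those of 3 of them, Bax, Aen and Ei24. Both strands were searched, and overlapping matches were kept. Only exact matches to RRRCWWGYYY were counted, where R is A or G, W is A or T and Y is C or T. Sites with a mismatch were not searched for, so a window without a match may still hold such a site. A half-site occurred in the windows of 9.55% of the 27025 genes with a window, and no window of these 7 genes held a pair of half-sites within 13 bases of each other, which 20 of all the genes did. The sites are printed to show the motif where it occurred among the targets. Of the 3 genes with a half-site, 2, Bax and Aen, were called higher at day 7, and of the 4 without one, 3, Fas, Eda2r and Phlda3, were. Each is printed 5′ to 3′ on the gene's strand with the half-site in capitals. The Bax stretch is the 250 bases before the start, at chr7:45466899-45467148 on the minus strand. The Aen stretch lies at chr7:78895927-78895956 on the plus strand and holds a half-site that begins 10 bases after 1 of the gene's 2 annotated starts and 121 bases before the other. The Ei24 stretch lies at chr9:36797325-36797354 on the minus strand, and its half-site ends at the last base before the start.
Bax upstream: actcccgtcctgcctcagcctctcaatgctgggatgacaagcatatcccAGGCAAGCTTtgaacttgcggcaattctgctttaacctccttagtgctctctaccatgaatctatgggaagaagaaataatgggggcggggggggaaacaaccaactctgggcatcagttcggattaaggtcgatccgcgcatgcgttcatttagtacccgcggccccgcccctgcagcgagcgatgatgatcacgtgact
Aen site: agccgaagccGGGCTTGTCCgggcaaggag
Ei24 site: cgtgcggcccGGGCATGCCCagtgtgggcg
A match of letters is a description of these windows and not evidence of binding.

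At day 4 all 10 genes were higher in irradiated than in control organoids, by 1.34-fold for Tnfrsf10b to 7.78-fold for Fas. At day 7, 5 of the 10 were called higher. Of these, Bax, Aen and Phlda3 had about the same estimated fold above control as at day 4. For Phlda3 the 95% interval of the difference between the days was wide, at -0.79 to 1.04 on the log2 scale. Fas and Eda2r had a smaller fold than at day 4. Among those not called, Pmaip1, Tnfrsf10b and Ei24 were within 0.15 of control on the log2 scale. Bbc3 and Perp stayed above control in both libraries without passing the test. Genes were tested with edgeR's quasi-likelihood F-test on expected counts, fitted to all 8 libraries together, and a gene was called when its Benjamini-Hochberg adjusted p over all 14063 genes was under 0.05. Of the p53 targets 10 of 10 were called higher at day 4 and 5 of 10 at day 7, against 20.0% and 4.70% of all genes tested. The lowest irradiated library lay above the highest control library for 10 of the targets at day 4 and 8 at day 7, which was so for 33.4% and 33.3% of all genes tested. The median log2 fold change of the targets was 0.89 at day 4 and 0.83 at day 7, and that of all genes tested was 0.00 at both days. Levels below are given in CPM, read counts scaled to a common library size with edgeR's TMM method, which suits comparisons of 1 gene between libraries. In bulk RNA, more RNA per cell and more cells of a type that holds a gene cannot be told apart.

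**Figure D1:**
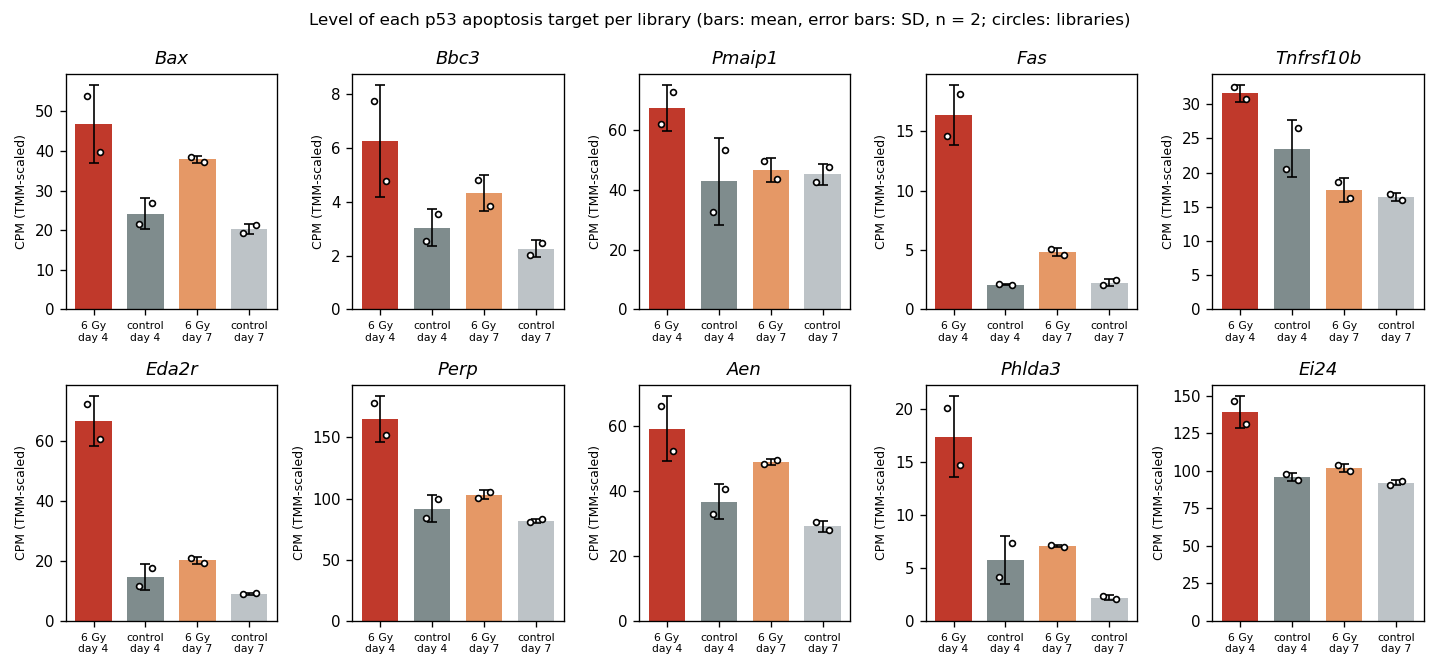
Each panel plots 1 of the 10 p53 targets, with the TMM-scaled CPM on the y axis and the 4 groups on the x axis. Bars are means, error bars are the SD of n = 2 and circles are the libraries. At day 4 both irradiated libraries lie above both control libraries in every panel, and at day 7 the panels of Pmaip1 and Tnfrsf10b show overlapping groups.

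Bax, the protein that forms pores in the mitochondrial outer membrane, had 53.8 and 39.7 CPM in irradiated organoids of day 4, against 21.5 and 26.9 CPM in their controls. At day 7 it had 38.5 and 37.3 CPM in irradiated organoids, against 19.3 and 21.2 CPM in controls. The groups did not overlap at either day, and both irradiated groups were about 2-fold above their controls. The log2 fold change was 0.95 ± 0.16 (SE) at day 4 and 0.90 ± 0.17 at day 7, with edgeR adjusted p-values of 0.00126 and 0.0112. The difference between these effects was -0.05, with a 95% interval of -0.55 to 0.46, so a loss or gain of up to about that size could not be seen. Irradiated organoids had less Bax at day 7 than at day 4 by 0.30 on the log2 scale, a change that did not pass the test (edgeR adjusted p = 0.166).

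Bbc3, which encodes Puma, a BH3-only protein that binds the survival members of the BCL-2 family, was among the targets with the fewest reads. It had 72 and 44 counts in irradiated organoids of day 4, against 30 and 58 counts in controls, which is 7.74 and 4.79 CPM against 2.56 and 3.54 CPM. At day 7 it had 4.80 and 3.85 CPM in irradiated organoids, against 2.04 and 2.48 CPM in controls. The groups stayed apart at both days. Its log2 fold change was 1.03 ± 0.32 at day 4 (edgeR adjusted p = 0.0277) and 0.93 ± 0.35 at day 7, where the call was missed (edgeR adjusted p = 0.123). Its effect at day 7 less that at day 4 had a 95% interval of -1.15 to 0.96, too wide to say whether the rise was kept. The day 4 call was lost with DESeq2, with only the day 4 libraries in the fit, and without control replicate 1 of day 4 or either irradiated replicate 1.

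Pmaip1, which encodes Noxa, a BH3-only protein that binds the survival protein Mcl1, had 61.8 and 72.7 CPM in irradiated organoids of day 4, against 32.5 and 53.1 CPM in controls. By day 7 it was at 49.5 and 43.7 CPM in irradiated organoids, against 42.6 and 47.5 CPM in controls. The groups were apart at day 4, with control libraries far from each other, and overlapped at day 7. On the log2 scale the fold change was 0.64 ± 0.21 at day 4 (edgeR adjusted p = 0.0461) and 0.05 ± 0.22 at day 7 (edgeR adjusted p = 0.922). The day 4 call was close to the threshold and was lost with only the day 4 libraries in the fit and in each fit that left out 1 library, except the fit without control replicate 2 of day 4. The difference of the effects, -0.60, did not pass the test (edgeR adjusted p = 0.249).

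Among the death receptors, Fas rose most. Fas, the receptor of Fas ligand, had 14.6 and 18.2 CPM in irradiated organoids of day 4, against 2.13 and 2.07 CPM in controls. At day 7 it had 5.10 and 4.57 CPM in irradiated organoids, against 2.04 and 2.48 CPM in controls. Controls of both days lay at a similar low level, and the irradiated libraries of day 7 lay between those controls and the irradiated libraries of day 4. Its log2 fold change was 2.96 ± 0.23 at day 4 and 1.09 ± 0.26 at day 7 (edgeR adjusted p = 1.34e-05 and 0.0300). The effect at day 7 less that at day 4 was -1.87 ± 0.35 (edgeR adjusted p = 0.0114), a comparison in which 775 genes, or 5.51% of all tested, were called lower. The call of Fas at day 7 was lost with DESeq2 and limma-voom, and both this call and that of the difference were lost without any 1 of the 4 day 7 libraries. From day 4 to day 7 Fas fell by 1.76 on the log2 scale in irradiated organoids (edgeR adjusted p = 4.19e-04), against a change of 0.11 in controls (edgeR adjusted p = 0.865). Its ligand gene Fasl had 1 count in all 8 libraries together.

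Eda2r, a receptor of the tumour necrosis factor family that binds the A2 form of ectodysplasin, had 72.5 and 60.8 CPM in irradiated organoids of day 4, against 11.6 and 17.7 CPM in controls. By day 7 it was at 21.0 and 19.3 CPM in irradiated organoids, against 8.80 and 9.29 CPM in controls. The groups stayed apart at both days while both irradiated and control organoids held less at day 7. Irradiation raised it by a log2 fold change of 2.17 ± 0.18 at day 4 and 1.15 ± 0.21 at day 7 (edgeR adjusted p = 2.30e-05 and 0.0103). The difference of these effects was -1.01 ± 0.27 and passed the test narrowly (edgeR adjusted p = 0.0442). This call was lost with limma-voom, on each TPM scale, and without irradiated replicate 1 of day 4 or any 1 of the 4 day 7 libraries. The ligand gene Eda had 23 counts in all 8 libraries together, and it did not pass the filter.

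Tnfrsf10b, the mouse receptor of the ligand TRAIL, had the smallest fold change of the 10 genes at day 4. It had 32.5 and 30.7 CPM in irradiated organoids of day 4, against 20.5 and 26.5 CPM in controls. At day 7 it had 18.7 and 16.2 CPM in irradiated organoids, against 16.9 and 16.0 CPM in controls. The groups overlapped at day 7, and all 4 libraries of that day lay below all 4 of day 4. Its log2 fold change was 0.42 ± 0.14 at day 4 (edgeR adjusted p = 0.0428) and 0.09 ± 0.16 at day 7 (edgeR adjusted p = 0.764). The day 4 call was lost with DESeq2, without a filter, with only the day 4 libraries in the fit, and in each fit that left out 1 library except the fit without control replicate 2 of day 4. Tnfsf10, the gene of its ligand, had 3.87 and 10.6 CPM in irradiated organoids of day 4, against 12.2 and 27.4 CPM in controls, and was not called (edgeR adjusted p = 0.0798).

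Perp, a membrane protein of epithelial junctions that in mice is also a p53 target linked to apoptosis, had 178 and 152 CPM in irradiated organoids of day 4, against 84.1 and 99.5 CPM in controls. Its day 7 levels were 101 and 106 CPM in irradiated organoids, against 80.7 and 82.9 CPM in controls. The groups were apart at both days, with a much smaller gap at day 7. On the log2 scale the fold change was 0.84 ± 0.10 at day 4 (edgeR adjusted p = 2.05e-04) and 0.33 ± 0.11 at day 7 (edgeR adjusted p = 0.0807). The difference of the effects was -0.51, with a 95% interval of -0.84 to -0.18 and an edgeR adjusted p of 0.0545 over all genes, just short of the call.

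Aen, a nuclease that acts in apoptosis, had 66.3 and 52.3 CPM in irradiated organoids of day 4, against 32.9 and 40.5 CPM in controls. Its day 7 levels were 48.4 and 49.7 CPM in irradiated organoids, against 30.4 and 27.9 CPM in controls. The groups did not overlap at either day, and both irradiated and control libraries were somewhat lower at day 7. Its log2 fold change was 0.69 ± 0.14 at day 4 and 0.75 ± 0.14 at day 7 (edgeR adjusted p = 0.00335 and 0.0128). The difference of the effects was 0.07, with a 95% interval of -0.37 to 0.51.

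Phlda3, a small protein with a pleckstrin homology domain that holds back the survival kinase Akt, had 20.1 and 14.7 CPM in irradiated organoids of day 4, against 4.18 and 7.38 CPM in controls. At day 7 it had 7.14 and 6.98 CPM in irradiated organoids, against 2.36 and 2.02 CPM in controls. The fold above control was about the same at both days while the level was lower at day 7 in both arms, and the irradiated libraries of day 7 were no higher than control replicate 2 of day 4. The log2 fold change was 1.57 ± 0.26 at day 4 and 1.69 ± 0.33 at day 7 (edgeR adjusted p = 0.00122 and 0.0137). The difference of the effects was 0.12, with a 95% interval of -0.79 to 1.04, too wide to say whether the whole rise was kept. From day 4 to day 7 it fell by 1.30 on the log2 scale in irradiated organoids (edgeR adjusted p = 0.00502) and by 1.42 in controls (edgeR adjusted p = 0.0471). The call at day 7 was lost with limma-voom. The fall in controls rested on few counts, 22 in each control library of day 7, and was lost without control replicate 2 of day 4 or any 1 of the 4 day 7 libraries, with limma-voom, on each TPM scale, and with only the control libraries in the fit, with adjusted p-values of up to 0.393.

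Ei24, a protein of the endoplasmic reticulum, had 147 and 131 CPM in irradiated organoids of day 4, against 97.9 and 94.1 CPM in controls. By day 7 it was at 104 and 99.98 CPM in irradiated organoids, against 90.7 and 93.2 CPM in controls. The irradiated libraries of day 7 remained above both controls by a small margin. The log2 fold change was 0.53 ± 0.08 at day 4 (edgeR adjusted p = 7.57e-04) and 0.15 ± 0.08 at day 7 (edgeR adjusted p = 0.294). The difference of the effects was -0.38, with a 95% interval of -0.64 to -0.12 and an edgeR adjusted p of 0.0639 over all genes.

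**Figure D2:**
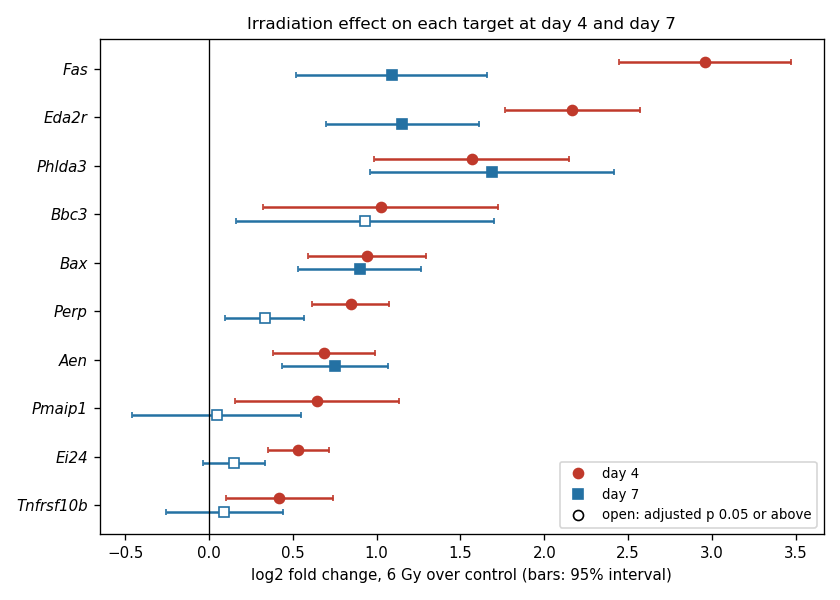
The log2 fold change of irradiated over control organoids is plotted for each p53 target at day 4 (circles) and day 7 (squares), with 95% intervals; open symbols did not pass an adjusted p of 0.05. The intervals of Fas, Eda2r, Perp and Ei24 do not overlap between the days, while the symbols of Bax, Aen, Phlda3 and Bbc3 lie side by side.

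Expressed as a share, the log2 fold change at day 7 was 95.2% ± 23.7 (SE) of that at day 4 for Bax, 109% ± 30.3 for Aen, 108% ± 27.6 for Phlda3 and 90.8% ± 43.9 for Bbc3. It was 53.2% ± 10.5 for Eda2r, 39.4% ± 13.5 for Perp and 36.8% ± 9.16 for Fas. It was lowest for Ei24, at 28.1% ± 16.2, Tnfrsf10b, at 21.9% ± 38.3, and Pmaip1, at 7.42% ± 33.8. The median over the 10 genes was 46.3%, and over the 2808 genes called higher at day 4 it was 32.1%. The 2808 genes were picked by their day 4 effect, by which the share is divided, and this can lower their share. The 10 genes came from a list of symbols, so the medians are not directly comparable. Of those 2808 genes, 17.5% were again called higher at day 7 and 24.7% were called lower in the test of the difference between days, against 5 and 2 of the 10 p53 targets. Measured as the difference in CPM, the remaining share was smaller for each of the 10 genes. The share of the CPM difference was 88.1% for Aen, 78.0% for Bax, 64.0% for Bbc3 and 41.9% for Phlda3, and between 6.15% for Pmaip1 and 29.1% for Perp for the other 6 genes. Both scales put Aen, Bax, Bbc3 and Phlda3 in the upper 4 places.

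**Figure D3:**
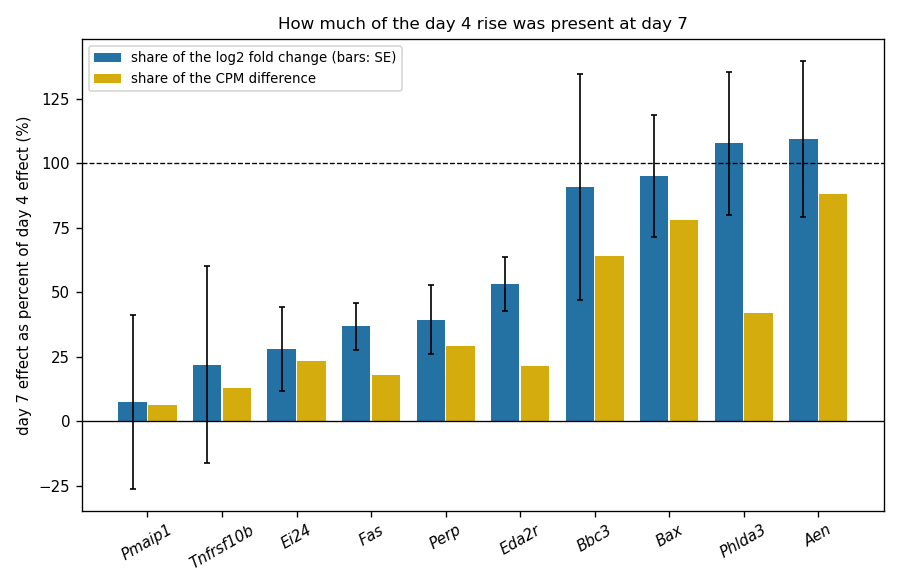
For each p53 target the irradiation effect at day 7 is plotted as a percent of that at day 4, as the log2 fold change (blue, error bars are the SE) and as the difference in CPM (yellow). The dashed line marks the full day 4 effect, and Phlda3 shows the largest gap between both scales, at 108% and 41.9%.

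The difference between the 2 effects was tested for each gene. Of the 10 genes, 8 had a lower effect at day 7, and 2, Fas and Eda2r, were called. The ranges of ± 1 SE around the remaining shares overlapped between all neighbours in the order. From day 4 to day 7, all 10 genes came down in irradiated organoids and 8 came down in controls. Their median log2 fold change was -0.60 and -0.30 in that order, against -0.03 and -0.0005 over all genes tested. Called lower were 6 in irradiated organoids (Fas, Eda2r, Tnfrsf10b, Perp, Phlda3 and Ei24) and 1, Phlda3, in controls. Over all genes tested, 18.3% and 1.46% were called lower. The balance over all genes in irradiated organoids depended on the scale, with 2071 called higher and 2568 lower at day 7 than at day 4 from the counts, and 3158 higher and 734 lower, or 5.10%, on log2(TPM + 1), where 2 of the 10 genes were called lower. The calls at day 7 depended on every day 7 library: without any 1 of these 4 libraries 0 of the 10 genes were called at day 7, where 105 to 165 of all genes were called in place of 1216, and 0 were called in the test of the difference (edgeR). In these fits the targets had a median log2 fold change of 0.80 to 0.87 at day 7. Their median difference between the effects was -0.36 to -0.24. Over all genes these medians were -0.01 to 0.04 and -0.02 to 0.01. With all libraries DESeq2 called 4 and limma-voom 3 of the 10 genes higher at day 7, against 4.00% and 3.26% of all genes. The log2 fold changes at day 7 kept their sign in these fits, except that of Pmaip1, which was -0.04 without control replicate 1 of day 7. When only the 4 day 7 libraries were fitted, 8 of the 10 genes were called, all but Pmaip1 and Tnfrsf10b, against 18.8% of all genes called higher.

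The scale of the values also mattered. The authors' TPM, counts scaled for gene length and to a fixed total per library, give a median remaining share of 82.2% on log2(TPM + 1), against 46.3% from the counts. On that scale the median of all genes was -0.17 at day 4 and 0.12 at day 7, and 3 of the 10 genes (Fas, Eda2r and Phlda3) were called at day 4 and 2 (Fas and Phlda3) at day 7, against 7.46% and 1.86% of all genes called higher. Over all genes 1074 were higher and 1612 lower at day 4 on that scale, against 2808 and 2322 from the counts, and 268 were higher and 60 lower at day 7, against 661 and 555. Mitochondrially encoded genes held 29.1% and 37.5% of the TPM in irradiated organoids of day 4, against 29.7% and 23.3% in controls. At day 7 they held 20.7% and 18.4% in irradiated organoids, against 21.6% and 22.2% in controls. The median share was 56.9% when TPM were rescaled without these genes, a choice made after seeing the data, and the part of these genes in the difference between the scales was not tested. When each library was centred on its median gene, a choice also made after seeing the data, the median share was 46.7%. Both TMM and this centring place the median gene close to no change, so the shares of 46.3% and 46.7% are not independent. After centring, 7 genes were called at day 4 and 4 at day 7, against 12.6% and 2.27% of all genes called higher. All 10 genes lay above the median of all genes at both days on the count scale and on both TPM scales.

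**Figure D4:**
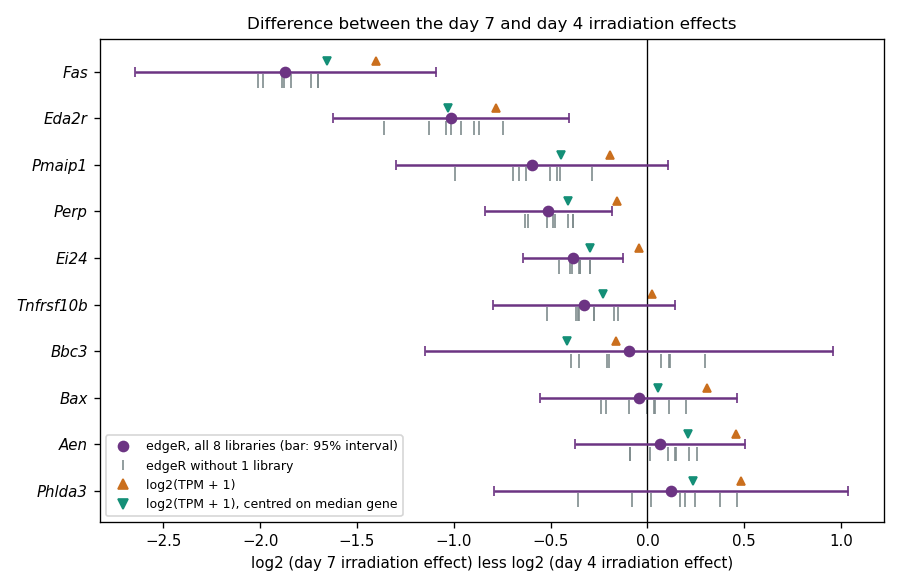
The irradiation effect at day 7 less that at day 4 is plotted on the log2 scale for each p53 target. Circles with 95% intervals come from all 8 libraries, ticks from fits that left out 1 library, and triangles from log2(TPM + 1) before and after centring on the median gene. Fas, Eda2r, Pmaip1, Perp and Ei24 stay left of 0 in every setting drawn, and on log2(TPM + 1) without centring Tnfrsf10b, Bax, Aen and Phlda3 lie right of 0.

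Between genes, levels can be compared as TPM. In control organoids of day 4 Ei24 had 65.9 ± 2.79 TPM (SD, n = 2) and Perp 64.2 ± 11.7 TPM, which did not differ beyond their spread. Bax followed at 40.2 ± 8.17 TPM, Pmaip1 at 25.0 ± 9.68 TPM and Aen at 20.2 ± 4.28 TPM, of which the libraries of Pmaip1 and Aen overlapped. Tnfrsf10b had 10.3 ± 2.32 TPM, Phlda3 8.39 ± 3.64 TPM and Eda2r 4.91 ± 1.73 TPM, and each overlapped with its neighbour in this order. Bbc3 at 2.60 ± 0.566 TPM and Fas at 2.10 ± 0.191 TPM were the lowest, and their libraries overlapped. The largest fold changes at day 4, of Fas, Eda2r and Phlda3, were of genes in the lower part of this order. Tnfrsf10b, next above Phlda3 in it, had the smallest fold change. The control level of day 4 is also the base of the day 4 fold change, so order and fold change are not independent. Over the 8 libraries, the mean profile of the 10 genes was most like that of Rheb, Sowaha, Arf3, Ezr and Arhgef3 among other genes with at least 5 CPM, with a Pearson r of 0.991 to 0.993 on log2 CPM. This likeness is a description of 8 libraries in 4 groups. Ezr, which encodes ezrin of the brush border, was at 648 and 513 CPM in irradiated organoids of day 4, against 214 and 250 CPM in controls.

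Trp53, the gene of p53 itself, was not called at day 4. It had 69.4 and 52.9 CPM in irradiated organoids of day 4, against 61.2 and 66.7 CPM in controls (edgeR adjusted p = 0.712), and 103 and 108 CPM in those of day 7, against 73.3 and 81.3 CPM (log2 fold change 0.44, edgeR adjusted p = 0.0493). The call at day 7 was lost with DESeq2, with limma-voom, without mitochondrial genes, on each TPM scale and in 6 of the 8 fits that left out 1 library, all but those without an irradiated library of day 4. Mdm2, whose product marks p53 for breakdown, was 1.36 above control on the log2 scale at day 4 and -0.04 at day 7, and Cdkn1a, which encodes the cell cycle inhibitor p21, 1.79 and 0.67. The difference of the effects was -1.39 for Mdm2 and -1.12 for Cdkn1a (edgeR adjusted p = 7.21e-04 and 0.0202), and the call of the difference for Cdkn1a was lost without any 1 of the 4 day 7 libraries or irradiated replicate 2 of day 4. Neither difference, of Mdm2 or of Cdkn1a, was called on log2(TPM + 1) or log2(TPM + 0.1). Of the 10 tested genes of p53 regulators and feedback, 3 rose and 4 fell at day 4, and 3 rose and 1 fell at day 7. Over all genes tested, 20.0% were called higher and 16.5% lower at day 4, and 4.70% and 3.95% at day 7. In this list the day 7 calls of Cdkn1a and Atm were lost with limma-voom and without any 1 of the 4 day 7 libraries. That of Ccng1 was lost without either control library of day 7. Of 8 further p53 targets linked to cell death, 4 rose and 1 fell at day 4 and 1 rose at day 7. Trp53inp1, which in mice drives p53-dependent death and autophagy, had 212 and 166 CPM in irradiated organoids of day 4, against 31.4 and 28.2 CPM in controls, and 54.7 and 53.2 CPM in those of day 7, against 40.2 and 39.8 CPM. Its effect fell by 2.24 on the log2 scale between the days (edgeR adjusted p = 2.04e-04). Zmat3, an RNA-binding protein, had a log2 fold change of 1.15 at day 4 and 0.72 at day 7 (edgeR adjusted p = 3.99e-04 and 0.0248), of which the day 7 call was lost without any 1 of the 4 day 7 libraries, and Steap3, a metal reductase, fell by 1.02 at day 4 (edgeR adjusted p = 0.00522).

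The partners of the 10 genes at the mitochondrion were called in both directions at day 4, where 20.0% of all genes were called higher and 16.5% lower. Bok and Bak1, the relatives of Bax that form pores, both rose at both days: Bok by 1.84 and 0.92 on the log2 scale (edgeR adjusted p = 1.03e-04 and 0.0249) and Bak1 by 0.31 and 0.51 (edgeR adjusted p = 0.0355 and 0.0150). The day 4 call of Bak1 was lost in 14 of 21 other settings, among them DESeq2, no filter, only the day 4 libraries in the fit and 6 of the 8 fits that left out 1 library, with log2 fold changes down to 0.07. Of 4 survival members tested, 2 rose at day 4 and 1 at day 7. Bcl2l1, which encodes Bcl-xL, was at 47.3 and 42.8 CPM in irradiated organoids of day 4, against 19.6 and 21.0 CPM in controls, and at 30.9 and 33.7 CPM in those of day 7, against 20.4 and 21.9 CPM (edgeR adjusted p = 5.68e-05 and 0.0142). Mcl1, the partner of Noxa, had 187 and 188 CPM in irradiated organoids of day 4, against 134 and 127 CPM in controls (edgeR adjusted p = 7.58e-04), and 153 and 138 CPM in those of day 7, against 154 and 145 CPM (edgeR adjusted p = 0.816). Of 4 BH3-only genes tested, Bad rose by 0.96 and Bmf fell by 1.02 at day 4 (edgeR adjusted p = 0.00107 and 0.0299), and the call of Bmf was lost with DESeq2, on each TPM scale, with only the day 4 libraries in the fit, and without either control library or irradiated replicate 1 of day 4. Of these 4 genes 0 were called at day 7 by edgeR, DESeq2 or limma-voom, and 0 had an unadjusted p under 0.05 in edgeR. Bik and Hrk, with 22 and 2 counts in all, did not pass the filter.

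Of 9 genes of the apoptosome and the caspases, 4 rose and 1 fell at day 4, against the same 20.0% and 16.5% of all genes, while 0 were called at day 7 by edgeR, DESeq2 or limma-voom, where 2, Cycs and Casp6, had an unadjusted p under 0.05 in edgeR. Apaf1, the scaffold of the apoptosome, had a log2 fold change of 0.52 at day 4 and -0.04 at day 7, and Casp6, an executioner caspase gene, 0.83 and 0.38. Cycs, the gene of cytochrome c, had a log2 fold change of 0.55 at day 4 (edgeR adjusted p = 0.00909), a call that was lost on each TPM scale and without the second irradiated library of day 4, where the log2 fold change was 0.47. The effect on Apaf1 differed between the days by -0.56 (edgeR adjusted p = 0.0406), a call that was lost in 14 of the 20 other settings. Among 5 inhibitors of apoptosis Birc5, the gene of survivin, which is made by dividing cells, had 33.3 and 30.8 CPM in irradiated organoids of day 4, against 63.1 and 53.8 CPM in controls (edgeR adjusted p = 2.32e-04), and 59.8 and 63.2 CPM in those of day 7, against 53.8 and 56.9 CPM. Its effect at day 7 less that at day 4 was 1.01 (edgeR adjusted p = 0.00489), where 4.60% of all genes were called higher. Xiap and Birc6 fell by 0.37 and 0.29 at day 7 (edgeR adjusted p = 0.0315 and 0.0415), calls that were lost with DESeq2, with limma-voom and without any 1 of the 4 day 7 libraries. Of 7 genes of death receptor ligands and adaptors tested, 3 rose and 1 fell at day 4, among them Ripk1 at 0.51 and Cflar, the inhibitor of caspase 8, at 0.32. The call of Cflar was lost in 13 of 21 other settings, among them DESeq2, no filter, only the day 4 libraries in the fit and 7 of the 8 fits that left out 1 library, and that of Ripk1 without control replicate 2 of day 4. Of the 7 genes 0 were called at day 7 by edgeR, DESeq2 or limma-voom, where 2, Cflar and Tnfrsf1a, had an unadjusted p under 0.05 in edgeR. Across these 6 groups of partners the genes called higher at day 7 were Bok, Bak1 and Bcl2l1, and each of these 3 calls was lost without any 1 of the 4 day 7 libraries and on log2(TPM + 1).

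Markers of several cell types were also called higher in irradiated organoids at day 4, and fewer were called higher at day 7. Of all genes tested, 20.0% were called higher and 16.5% lower at day 4, and 4.70% and 3.95% at day 7. All 12 enterocyte markers rose at day 4 and 5 rose at day 7. Their summed level was 12352 and 19949 CPM in irradiated organoids of day 4, against 3804 and 3422 CPM in controls. It was 4967 and 4957 CPM in irradiated organoids of day 7, against 3193 and 3177 CPM in controls. Of 8 Paneth cell markers 7 rose at day 4, while at day 7 0 were called by edgeR, DESeq2 or limma-voom, with an unadjusted p under 0.05 for 0, 1 and 2 of them in that order of tools. Their summed levels were 4692 and 6458 CPM in irradiated organoids of day 4, against 2095 and 1200 CPM in controls, and 1736 and 1733 CPM in those of day 7, against 2288 and 2214 CPM. No marker of either list was at 0 in both libraries of any group. The 8 general epithelial markers were all present, with a sum of 6875 and 5721 CPM in irradiated organoids of day 4, against 3960 and 3969 CPM in controls, and of 5207 and 5347 CPM in those of day 7, against 3950 and 3917 CPM. Of these 8 markers 4 rose and 2 fell at day 4, and 3 rose at day 7. Markers of immune cells, 9 in all, summed to 7.10 and 8.93 CPM in irradiated organoids of day 4, against 2.64 and 3.29 CPM in controls, and to 2.65 and 4.21 CPM in irradiated organoids of day 7, against 2.90 and 2.85 CPM in controls. The sum of the 5 endothelial markers was 2.37 and 4.79 CPM in the irradiated organoids of day 4, against 0.767 and 0.975 CPM in controls, and 0.612 and 0.602 CPM in those of day 7, against 0.859 and 0.460 CPM. Both immune markers tested and 1 of 2 endothelial markers tested rose at day 4. Markers of mesenchymal cells summed to 0.306 to 1.71 CPM per library, and Adgre1, Cdh5 and Kdr were at 0 in all groups. The part of any of these cell types in the rise of the p53 targets was not tested.

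Libraries held 7541764 to 16054269 counts, so that 1 count stood for 0.0610 to 0.120 CPM. Irradiated replicate 2 of day 4 had the highest share of mitochondrial transcripts, 27.6% of its counts, against 12.9% to 20.7% in the other 7 libraries. Without that library the median log2 fold change of the 10 genes was 1.05 at day 4 and 0.83 at day 7. With all libraries it was 0.89 and 0.83. Of the 10 genes, Bax shares 192 exon bases with the gene model Gm45808 on its own strand, which had 1.54 counts in all libraries, and Ei24 shares 324 with the antisense model Gm26787, which had 0, in the GENCODE M21 annotation.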

How the data were processed

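Expected counts and TPM were deposited by the authors as separate tables, each with 1 row per gene and 1 column per library. An expected count is an estimate in which reads that match several genes are divided between them. The tools named per the submitters' processing notes are RSEM 1.3.3, STAR 2.7.3a, Trim Galore and FastQC, and the builds are mm10 and GRCm39, without their roles. For the annotation release and the strand setting, nothing is given in the sources used here. Per the labels' protocols, the library kit was a directional poly-A kit.

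Expected counts were rounded, which changed 11.4% of values. Symbols came from GENCODE M21 by exact match (52083 of 55416 IDs). Genes were filtered with filterByExpr (minimum count 10, minimum total 15), which kept at least 99.8% of each library's counts. They were scaled by TMM and fitted with edgeR 4.0.16 (quasi-likelihood, robust) as 4 group means with 4 residual degrees of freedom. SEs are the log2 fold change over the square root of F. The SE of a share follows from those of both effects. The 5 comparisons were irradiation at each day, their difference, and day 7 against day 4 in each arm. All adjusted p-values beside a gene come from this fit, two-sided. The script was tested on simulated data.

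Named genes are all 10 targets, Trp53, Mdm2, Cdkn1a and the 5 genes of most like profile. Up to 3 called genes per pathway list and irradiation comparison were also named, by smallest p. Tnfrsf1a, Tnfsf10, Fasl, Eda, Bik, Hrk, Gm45808, Gm26787, Adgre1, Cdh5 and Kdr were named after their values were seen. One item of the lists is not reported here and was left out of their counts. The targets and lists were chosen with earlier results of these data known. Alternatives were other size factors, filters, DESeq2 1.42.0, limma-voom (limma 3.58.1), log2 TPM with pseudocounts of 1 and 0.1, fits of the compared groups, a replicate block, counts with mitochondrial genes removed, and fits without each library in turn; 2 scalings of TPM were chosen after seeing the data. Sequence windows are those of RefSeq.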

Additional observations from a re-analysis of the deposited data

Results flagged for a closer look

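The irradiation effect differed between the days for 11 genes named in the text, each by the test of the difference itself (day 7 effect less day 4 effect on the log2 scale, edgeR adjusted p under 0.05). Among the p53 targets these were Fas, at -1.87, and Eda2r, at -1.01. Among their partners the difference was -0.56 for Mcl1, -0.56 for Apaf1, -0.53 for Xiap and -0.65 for Cflar, and Birc5 alone among the 11 had a positive one, at 1.01. Among other genes of the p53 pathway it was -2.24 for Trp53inp1, -1.39 for Mdm2, -0.95 for Ccng1 and -1.12 for Cdkn1a. The calls of Fas, Eda2r, Mcl1, Apaf1, Xiap, Cflar and Cdkn1a were lost without any 1 of the 4 day 7 libraries, and those of Apaf1, Xiap and Cflar also with DESeq2, while Birc5, Trp53inp1, Mdm2 and Ccng1 were called in each fit that left out 1 library. The calls of Mdm2 and Ccng1 were lost on log2(TPM + 1) and log2(TPM + 0.1), and that of Ccng1 also after rescaling TPM without mitochondrial genes. On log2(TPM + 1) without a filter, where 2 of all genes were called, each of the 11 calls was lost. Over all genes tested, 4.60% were called higher and 5.51% lower in this comparison.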

How the results depend on the processing

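The 10 p53 targets lay above control at day 4 in every setting run, and at day 7 in every one except Pmaip1 without 1 library. Of 65 called gene results named in the text or behind it, 31 were called in each fit that left out 1 library. When 1 library was left out, 7 to 10 targets were called at day 4, 0 to 6 at day 7, 0 to 4 in the difference between the days, 4 to 8 between the days in irradiated organoids and 0 to 3 in controls, where all libraries gave 10, 5, 2, 6 and 1. In the same fits 3842 to 5101 of all genes were called at day 4, 105 to 2341 at day 7, 244 to 2718 in the difference, 2094 to 5252 between the days in irradiated organoids and 17 to 1234 in controls, and the median remaining share was 41.5% to 57.6%. With all libraries these counts were 5130, 1216, 1422, 4639 and 382.

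Called targets are given in the order day 4, day 7, difference, irradiated between days and control between days, where they moved by over 1.5 times. On log2(TPM + 1) they were 3, 2, 1, 2 and 0, on log2(TPM + 0.1) 3, 2, 0, 2 and 0, and on log2(TPM + 1) without a filter 2, 0, 0, 1 and 0. With the last the median log2 fold change of the targets at day 7 was 0.77, against 0 over all genes. For all genes in the same order log2(TPM + 1) gave 2686, 328 and 179 and, for controls between days, 40, log2(TPM + 0.1) gave 2598, 311, 144 and 35, and log2(TPM + 1) without a filter gave 1488, 100, 2, 1569 and 25. The median remaining share was 82.2%, 84.3% and 82.2%. Of 2 scalings chosen after seeing the data, centring on the median gene gave 1 target in the difference and 0 in controls, and 462, 705 and 47 of all genes at day 7, in the difference and in controls. Rescaling without mitochondrial genes gave 6 targets at day 4, 1 in the difference and 0 in controls, with 3319, 479, 353, 3047 and 59 of all genes, and a median share of 56.9%.

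Without a filter on counts 3 targets were called in controls between days, and 2044, 2456 and 1217 of all genes at day 7, in the difference and in controls. A filter of at least 5 CPM in 2 libraries, which Bbc3 did not pass, gave 4 targets in the difference. With limma-voom 3 targets were called at day 7, 1 in the difference and 0 in controls. Fits of only the groups compared called 8 targets at day 7 and 0 in controls, and 3228, 4732 and 620 of all genes at day 4, at day 7 and in controls. The replicate block called 1 target in the difference, where Eda2r was not called, and 0 in controls, where Phlda3 was not called. With it Tnfrsf10b at day 4, and Trp53 and Birc6 at day 7 were not called either. Libraries of equal number did not deviate together (r of -0.04 to 0.06 over 6 pairs of groups, 3 of them positive). With 2 libraries per group this cannot tell whether libraries of equal number share a mouse or culture. The numbers are used here only to name libraries. The causes of these moves were not tested.

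Values of uncalled results changed sign as follows, on the log2 scale. Bax in the difference was 0.056 without a filter, 0.31 on log2(TPM + 1) with or without a filter, 0.31 on log2(TPM + 0.1), 0.055 after centring and 0.12 after rescaling, and -0.24 to 0.20 without 1 library. Bax and Aen in irradiated organoids between days were 0.086 and 0.12 on log2(TPM + 1), with or without a filter, and 0.088 and 0.12 on log2(TPM + 0.1). Tnfrsf10b in the difference was 0.023 on log2(TPM + 1), with or without a filter, and 0.028 on log2(TPM + 0.1). Bbc3 in the difference was 0.0084 without a filter and -0.39 to 0.30 without 1 library, Aen -0.092 to 0.26 and Phlda3 -0.36 to 0.46. Pmaip1 in controls between days was -0.019 on log2(TPM + 1), with or without a filter, -0.018 on log2(TPM + 0.1), -0.0796 after centring, -0.10 after rescaling and -0.23 to 0.47 without 1 library, and Pmaip1 at day 7 was -0.040 to 0.18. Fas in controls between days was -0.042 to 0.24. Mdm2 in controls between days was 0.16 on log2(TPM + 1), with or without a filter, 0.17 on log2(TPM + 0.1), 0.10 after centring and 0.075 after rescaling. Mdm2 at day 7 was 0.017 without a filter and -0.048 to 0.046 without 1 library, and Trp53 at day 4 was -0.29 to 0.11. The called value of Xiap also changed sign in the difference, to 0.014 on log2(TPM + 1), with or without a filter, and to 0.014 on log2(TPM + 0.1).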
